A study of Mus musculus with 8 samples.

Results

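The genes described here were 10 genes of brain endothelial cells and of the blood-brain barrier, of 32285 genes counted in each library: Cldn5, Slco1a4, Ly6c1, Ly6a, Pecam1, Flt1, Slc2a1, Mfsd2a, Itm2a and Bsg. They were taken by gene symbol, and each matched 1 gene of the count tables. The study placed coronal brain sections of p16-3MR mice on Visium slides, on which spots of 55 µm with positional barcodes capture the RNA of a section 10 µm thick. There were 8 sections in 4 groups, 2 sections per group. PTX mice had received paclitaxel, a microtubule-stabilising chemotherapy drug, at 5 mg/kg per day in 2 cycles of 5 days with 7 days between them. PTX+GCV mice had received the same and then ganciclovir (GCV) at 25 mg/kg per day, and PTX+ABT263 mice the same and then ABT263 at 1.5 mg/kg per day, each in 2 cycles of 5 days with 2 weeks between them. Control mice had received the vehicles, DMSO and saline. All mice, Control mice included, carried the p16-3MR transgene, in which the p16 promoter drives a fusion of luciferase, a red fluorescent protein and a viral thymidine kinase, so that GCV kills cells that express it. ABT263 inhibits survival proteins related to BCL-2, and it acts with or without the transgene. Brains were taken after perfusion with PBS, 6 months after PTX, from mice labelled male and aged 9 to 10 months. The labels did not say whether the 2 sections of a group came from different mice, so the p-values below measure the spread between sections, which may be technical.

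Brain endothelial cells form the blood-brain barrier. Tight junctions close the space between neighbouring cells, vesicle traffic across the cell is held low, and nutrients pass through dedicated carriers while many drugs are pumped back into the blood. Capillaries carry most of this barrier. Vessels of the choroid plexus are instead fenestrated, and there the epithelium that makes cerebrospinal fluid forms the barrier. Of the 10 genes, Cldn5 encodes claudin-5, the main tight junction claudin of brain endothelium, and Pecam1 encodes the junctional adhesion molecule CD31. Slc2a1 encodes the glucose carrier GLUT1, Slco1a4 an organic anion transporter, Mfsd2a the carrier of lysophosphatidylcholine-bound docosahexaenoic acid that also restrains transcytosis, and Bsg basigin (CD147), a partner of monocarboxylate transporters. Ly6a (Sca-1) and Ly6c1 encode lipid-anchored surface antigens used as endothelial markers in mouse brain. Flt1 encodes VEGF receptor 1. Itm2a encodes a transmembrane protein enriched in brain endothelium. Bsg and Slc2a1 are not confined to endothelium: Bsg is made by many cell types, and choroid plexus epithelium and astrocytes also express Slc2a1.

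Promoters of 4 of these genes are shown because they stand for the classes whose levels are described below: a junction gene, a receptor gene and 2 carrier genes. Each is given 5′ to 3′ on the strand of the gene, from 250 bases before the annotated start, 300 bases in all (RefSeq, GRCm38.p6, the mm10 build of the count tables). Capitals mark AGGAAG, a core bound by ETS factors such as the endothelial regulators ERG and FLI1, and ACGTG, the core bound by hypoxia-inducible factors. Both strands were searched, and the motifs do not overlap each other.
Cldn5, chr16:18776597-18776896, plus strand: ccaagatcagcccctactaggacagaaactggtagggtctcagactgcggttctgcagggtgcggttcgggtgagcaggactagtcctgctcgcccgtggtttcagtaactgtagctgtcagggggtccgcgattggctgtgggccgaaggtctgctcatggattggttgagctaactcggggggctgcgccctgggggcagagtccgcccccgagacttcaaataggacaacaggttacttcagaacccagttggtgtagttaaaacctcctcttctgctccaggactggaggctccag
Flt1, chr5:147725962-147726261, minus strand: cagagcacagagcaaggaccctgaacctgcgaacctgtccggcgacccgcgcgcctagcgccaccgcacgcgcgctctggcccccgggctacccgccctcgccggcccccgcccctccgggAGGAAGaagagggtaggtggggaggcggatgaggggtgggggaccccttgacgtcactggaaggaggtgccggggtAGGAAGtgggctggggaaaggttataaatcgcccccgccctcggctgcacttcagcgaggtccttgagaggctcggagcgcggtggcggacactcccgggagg
Slc2a1, chr4:119108495-119108794, plus strand: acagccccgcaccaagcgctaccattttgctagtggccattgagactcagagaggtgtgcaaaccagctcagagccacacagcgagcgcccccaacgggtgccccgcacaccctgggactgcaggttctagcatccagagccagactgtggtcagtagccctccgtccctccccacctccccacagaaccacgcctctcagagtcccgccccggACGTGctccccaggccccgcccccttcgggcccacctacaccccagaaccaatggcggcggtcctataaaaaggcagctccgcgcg
Mfsd2a, chr4:122961139-122961438, minus strand: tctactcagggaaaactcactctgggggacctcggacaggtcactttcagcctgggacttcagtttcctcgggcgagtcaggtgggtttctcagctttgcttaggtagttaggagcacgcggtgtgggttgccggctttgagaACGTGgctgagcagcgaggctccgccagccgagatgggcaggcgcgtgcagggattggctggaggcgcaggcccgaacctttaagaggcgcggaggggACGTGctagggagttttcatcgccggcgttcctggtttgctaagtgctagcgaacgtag
AGGAAG was found in Flt1 at 129 and 53 bases before the start, and ACGTG in Slc2a1 at 36 and in Mfsd2a at 107 and 9 bases before the start. Neither run of letters was in the Cldn5 window. In the whole table, 35.4% of 32851 promoters held AGGAAG and 19.6% held ACGTG. The table held 8 promoters of 7 of the 10 genes, of which 4 held AGGAAG and 2 held ACGTG. These matches describe letters only.

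After spots with fewer than 200 detected genes or more than 30% mitochondrial counts were left out, 2346 to 2839 spots per section remained, 21328 in all. They held 19870666 to 42886400 UMIs (unique molecular identifiers, each standing for 1 captured RNA molecule) per section. The shallowest section was Control section 1, with a median of 7583 UMIs per spot, and the deepest PTX section 1, with 15716. Each spot was given to 1 of 10 areas by marker genes of brain areas, none of which is among the 10 genes, and 82.6% of neighbouring spots fell in the same area. A spot covers several cells, so the values mix endothelial RNA with that of neurons and glia. Fewer endothelial cells and less RNA per endothelial cell cannot be told apart. The sections labelled PTX+ABT263 went against their label: Xist, expressed from the inactive X chromosome of females, had 754 and 695 UMIs there and 0 or 1 in each of the other 6 sections, and the Y-linked Ddx3y had 17 and 0 UMIs there and 711 to 1350 elsewhere. Comparisons that rest on these sections therefore also compare sexes, and the calls lost when they were left out are named beside the results.

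All 10 genes were detected in every section. Over the whole section, the sum of their UMIs lay between 15760 in Control section 1 and 41786 in PTX section 1. Levels below are CPM, the UMIs of a gene per 1000000 UMIs of the section or area, scaled with trimmed-mean (TMM) factors, which keep a few abundant genes from setting the scale. The junction gene Cldn5 had 44.1 and 47.0 CPM in PTX sections, 44.1 and 42.6 in PTX+GCV sections, 49.9 and 50.8 in sections labelled PTX+ABT263, 42.5 and 35 in Control sections. Both sections labelled PTX+ABT263 lay above the other 6, and Control section 2 was the lowest. The first of these holds with TMM factors only, since without them the second section labelled PTX+ABT263 had 46.7, under the 47.9 of PTX section 2. The carrier gene Mfsd2a showed no such order: it had 14.6 and 12.4 in PTX sections, 12.1 and 14.5 in PTX+GCV sections, 16.4 and 17.3 in sections labelled PTX+ABT263, 12.1 and 16.4 in Control sections. For the other 8 genes the 8 sections together spanned 16.7 to 20.9 CPM for Slco1a4, 45.6 to 68.1 for Ly6c1, 29.6 to 52.0 for Ly6a, 7.87 to 9.82 for Pecam1, 20.8 to 26.8 for Flt1, 58.4 to 78.8 for Slc2a1, 37.1 to 47.5 for Itm2a and 498 to 652 for Bsg. Control section 1 held the lowest value of Ly6c1, Ly6a, Slc2a1 and Bsg, and the highest of Flt1. Within the isocortex, Cldn5 was found in a median of 44.2% of the spots of a section (23.9% to 52.1%), Pecam1 in 11.1% (6.19% to 15.7%) and Bsg in 98.3% (93.1% to 99.6%).

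**Figure D1:**
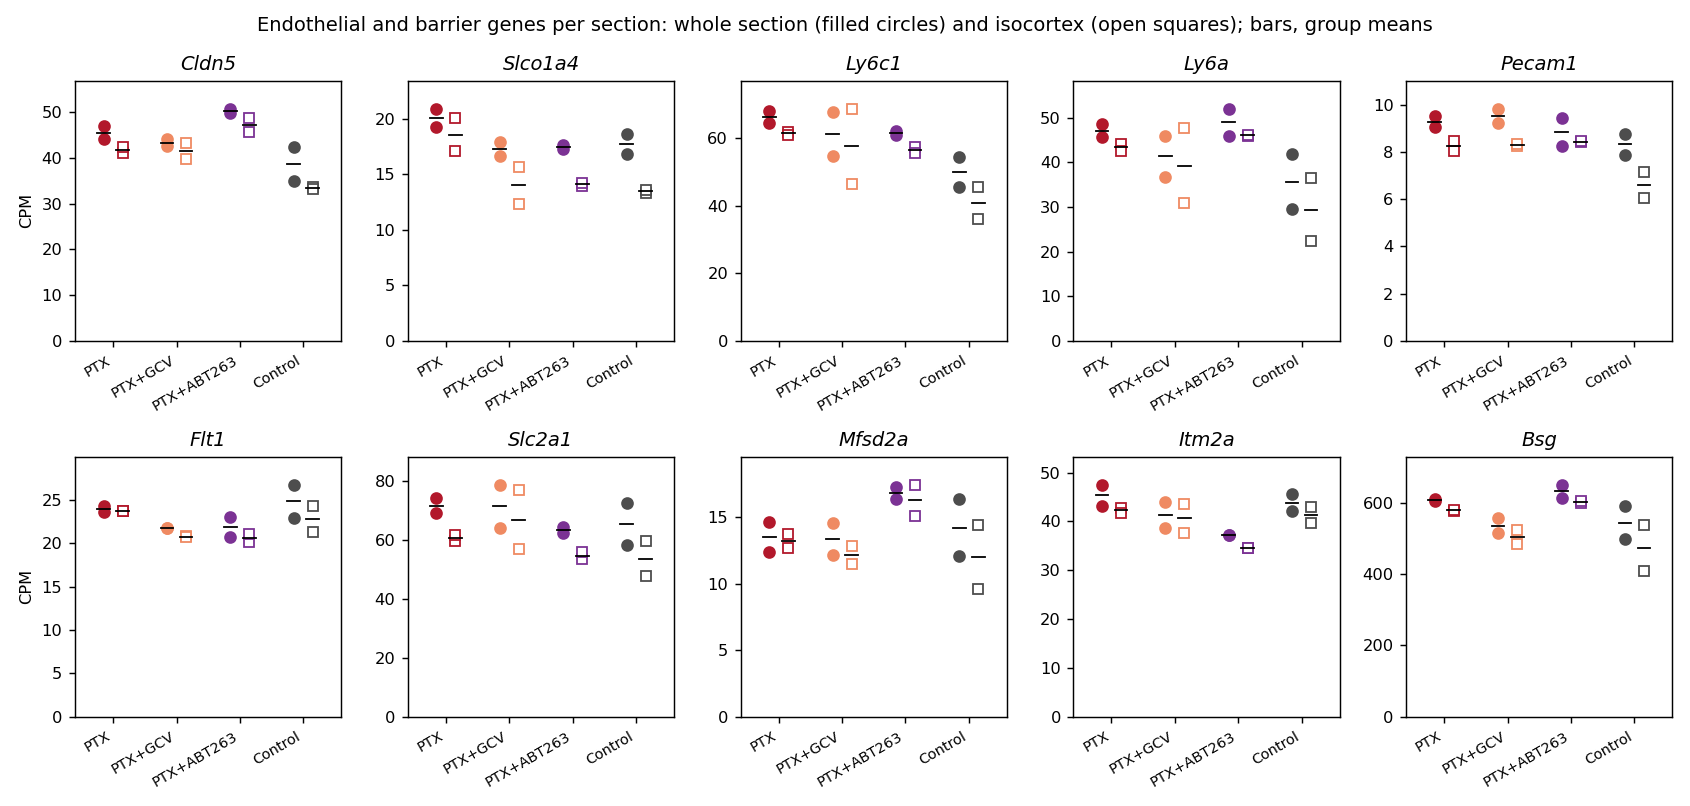
Level of each of the 10 genes in CPM over the whole section (filled circles) and in the isocortex (open squares), 1 panel per gene, with 1 symbol per section in the 4 groups and a bar at each group mean. The spread between the 2 sections of a group differs between genes. Over the whole section 6 genes have both PTX sections above both Control sections, as do 21.8% of all genes. Cldn5 is highest there in both sections labelled PTX+ABT263 (with TMM factors only). Ly6c1 is higher in both PTX sections (64.3 and 68.1) than in both Control sections (45.6 and 54.4).

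Ly6a and Ly6c1 belong to 1 gene family and lie close together in the genome: Ly6a (chr15:74994877-74998031) and Ly6c1 (chr15:75044018-75048830), both on the minus strand of mm10. Ly6c1 shares 252 of 795 windows of 50 bases along its longest transcript (844 bases) with its near copy Ly6c2. Where on the transcript the shared windows lie was not examined. Ly6c2 itself had 1 to 7 UMIs per section. How reads from the shared windows were counted was not examined, and the Ly6c1 value is uncertain to that extent. Slco1a4 (chr6:141805440-141856199) shared no such window in its last 1000 bases with its neighbour Slco1a5, which had 1 to 11 UMIs per section. The other genes lie at chr16:18776847-18778262 (Cldn5), chr11:106654217-106750628 (Pecam1), chr5:147561604-147726011 (Flt1), chr4:119108711-119137983 (Slc2a1), chr4:122946850-122961188 (Mfsd2a), chrX:107397099-107403376 (Itm2a) and chr10:79704491-79711969 (Bsg).

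The genes differed most between areas of the section. Between areas, more, higher, less and lower refer to CPM, a share of the UMIs of an area, unless UMIs per spot are named. The meninges area was 56 to 73 spots per section, picked by meninges markers in each spot alone. Where these spots lay on the section was not examined. The area held more of 9 of the 10 genes than the rest of the section, where 17.8% of 15955 genes tested were higher and 19.6% lower (edgeR quasi-likelihood test with section as a block, Benjamini-Hochberg adjusted p under 0.05, here and for the other areas). Cldn5 ran from 115 over a median of 161 to 235 CPM in the meninges area of the 8 sections, against 33.1, 41.5 and 47.6 in the rest. It was higher in 8 of 8 sections, with a log2 difference of 1.99 (SE 0.09, adjusted p = 9.53e-42). Pecam1 had 11.6 to 47.2 CPM (median 35) in the meninges area and 7.46 to 9.29 (median 8.45) in the rest, 1.97 on the log2 scale (SE 0.18, adjusted p = 4.94e-18). Itm2a differed by 1.91 (SE 0.09), Ly6a by 1.74 (SE 0.09), Flt1 by 1.64 (SE 0.12), Ly6c1 by 1.41 (SE 0.09), Slco1a4 by 1.36 (SE 0.14), Slc2a1 by 1.23 (SE 0.08) and Bsg by 0.38 (SE 0.06), each in 8 of 8 sections, as were 8.84% of all genes. The exception was Mfsd2a, with 5.90, 13.1 and 26.5 CPM in the meninges area as lowest, median and highest value, against 11.9, 14.2 and 16.9 in the rest (log2 difference 0.12, SE 0.21, adjusted p = 0.689). That rests on 61 Mfsd2a UMIs over all 8 meninges areas, so a difference of the size seen for Bsg was not detectable at this depth. Other vascular transcripts moved with these genes there: the summed level of 9 pericyte markers was 561 to 893 CPM in the meninges area and 121 to 148 in the rest, that of 8 smooth muscle markers 483 to 936 and 45.8 to 65.1. Their part in the result was not tested. Only 21.3% of the neighbours of a meninges spot were meninges spots themselves. A meninges spot held fewer UMIs of all genes in 8 of 8 sections (median 7082, against 13603 in the rest). Per spot, Bsg was lower in the meninges area in 7 of 8 sections (median 5.25 UMIs, against 7.89), as was Mfsd2a. The other 8 genes were higher per spot in 7 or 8 sections.

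The choroid plexus area, 29 to 47 spots per section, split the 10 genes: 3 were higher, 3 lower and 4 did not pass the test, with 24% of 15765 genes higher and 29.4% lower as background. Bsg ran from 1615 over 2196 to 3306 CPM (lowest, median, highest), against 464, 553 and 594 in the rest, a log2 difference of 2.07 (SE 0.09, adjusted p = 8.48e-30). Slco1a4 reached 25.4, 49.9 and 64.3 CPM, against 15.7, 16.8 and 19.8 in the rest (1.46, SE 0.18, adjusted p = 1.19e-10). Both genes and the glucose carrier gene Slc2a1 (0.97, SE 0.13, adjusted p = 1.58e-09) were higher in 8 of 8 sections, as were 10.9% of all genes. The tight junction gene went the other way in 8 of 8 sections. Cldn5 had 3.57, 17.5 and 25.5 CPM, against 33.9, 42.4 and 49.0 in the rest, and the log2 difference was -1.37 (SE 0.21, adjusted p = 8.76e-08), resting on 46 Cldn5 UMIs in all, 1 to 15 per section. Ly6c1 was lower in 8 of 8 sections (-0.56, SE 0.16, adjusted p = 0.0018), and Mfsd2a was lower in 7 of 8 with 20 UMIs in all (-0.95, SE 0.33, adjusted p = 0.0125). Pecam1, with 31 UMIs in all, gave 0.45 (SE 0.31, adjusted p = 0.213), and Flt1 gave 0.16 (SE 0.20, adjusted p = 0.538). Markers of choroid plexus epithelium summed to 165021 to 225560 CPM in this area and to 206 to 591 in the rest, and all 10 of the markers tested were present in each section. Those of pericytes summed to 128 to 175 and 127 to 158.

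**Figure D2:**
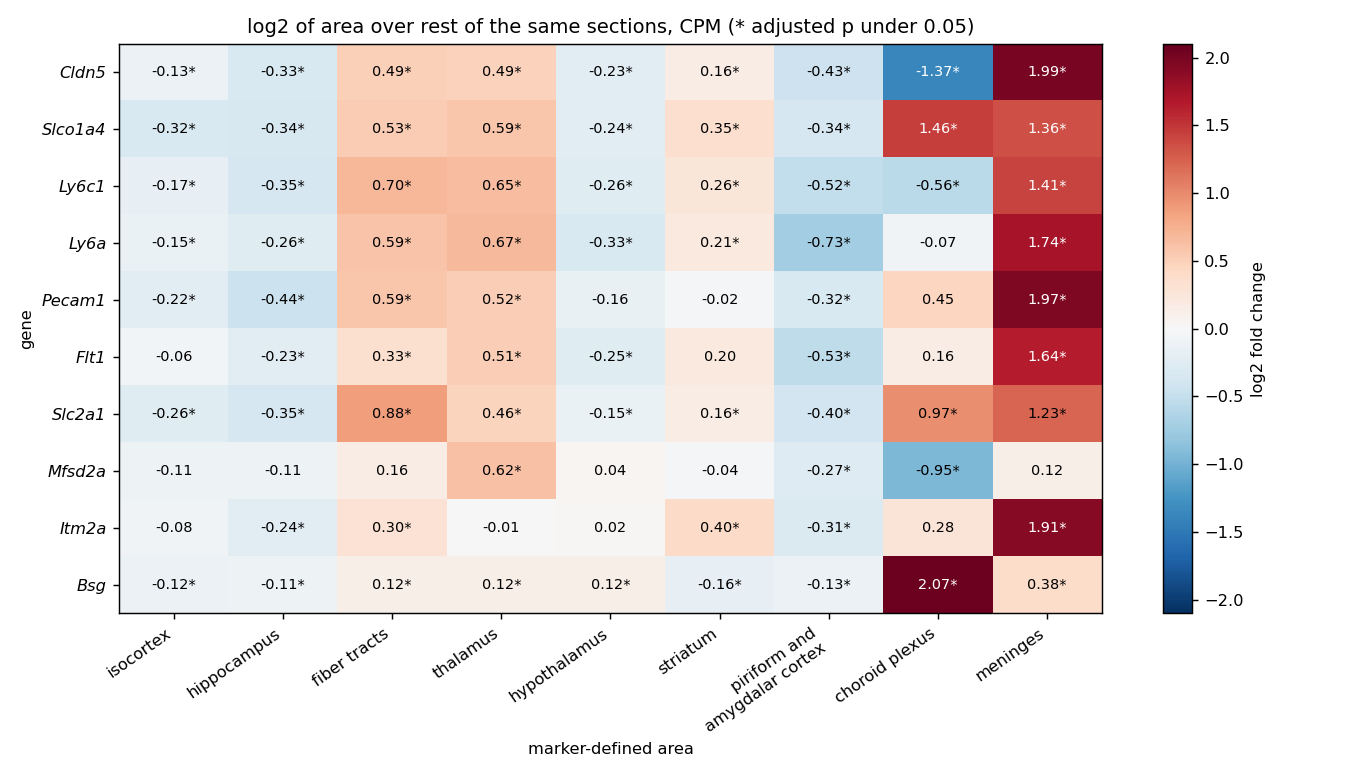
Log2 of the level in each of 9 areas (columns) over the rest of the same sections for the 10 genes (rows), 8 sections each, as a colour (red higher, blue lower) with the value printed in the cell and an asterisk where the adjusted p was under 0.05. The meninges column is red for 9 genes and pale for Mfsd2a (0.12), and in the choroid plexus column Bsg (2.07) and Cldn5 (-1.37) have opposite colours.

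The thalamus (313 to 492 spots per section) held more of 9 of the 10 genes, with 30.8% of 15296 genes higher and 31.9% lower as background. Ly6a and Ly6c1 differed most: Ly6a by 0.67 (SE 0.07, adjusted p = 5.65e-07) and Ly6c1 by 0.65 (SE 0.06, adjusted p = 7.48e-08), with 73.3, 86.0 and 96.8 Ly6c1 CPM in the thalamus as lowest, median and highest, against 41.6, 55.8 and 66.1 in the rest. The thalamus was the area with the highest mean of the lipid carrier gene Mfsd2a. Its values there were 12.2, 21.4 and 29.0 CPM, against 11.4, 13.4 and 15.3 in the rest, higher in 7 of 8 sections by 0.62 on the log2 scale (SE 0.08, adjusted p = 8.51e-06). Slco1a4 (0.59), Pecam1 (0.52), Flt1 (0.51), Cldn5 (0.49), Slc2a1 (0.46) and Bsg (0.12) were also higher there. Thalamus spots held fewer UMIs of all genes in 7 of 8 sections, and per spot Bsg was lower there in 5. Itm2a was the only one of the 10 that did not pass the test: 39.0, 40.2 and 50 CPM in the thalamus, against 35.9, 43 and 48.4 in the rest (-0.01, SE 0.06, adjusted p = 0.872). Pericyte markers summed to 152 to 224 CPM in the thalamus and 116 to 148 in the rest, and smooth muscle markers to 63.0 to 101 and 49.3 to 74.0. Their part in the result was not tested.

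In fiber tracts, the white matter, the scale of measurement set the direction. As CPM, 9 of the 10 genes were higher than in the rest of the section (28.2% of 15774 genes higher, 29.8% lower). The glucose carrier gene Slc2a1 led with 94.4, 117 and 145 CPM as lowest, median and highest, against 54.1, 62.1 and 75.1 in the rest (0.88, SE 0.06, adjusted p = 2.87e-13, 8 of 8 sections). Ly6c1 (0.70), Ly6a (0.59), Pecam1 (0.59), Slco1a4 (0.53), Cldn5 (0.49), Flt1 (0.33), Itm2a (0.30) and Bsg (0.12, adjusted p = 0.0205) followed. Mfsd2a, higher in 6 of 8 sections, did not pass the test (0.16, SE 0.12, adjusted p = 0.252). Per spot, all 10 genes were lower in fiber tracts in 8 of 8 sections, as were 84.7% of all genes tested there. A fiber tract spot held 0.157, 0.213 and 0.485 Cldn5 UMIs, against 0.391, 0.682 and 0.849 in a spot of the rest, and 2517, 4799 and 6185 UMIs of all genes, against 9265, 14875 and 18721. White matter spots thus held fewer UMIs altogether, and a larger share of them came from these genes. The call of Bsg was lost with total counts in place of TMM factors (0.01, adjusted p = 0.811), and that of Flt1 without the sections labelled PTX+ABT263 (0.24, adjusted p = 0.061).

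**Figure D3:**
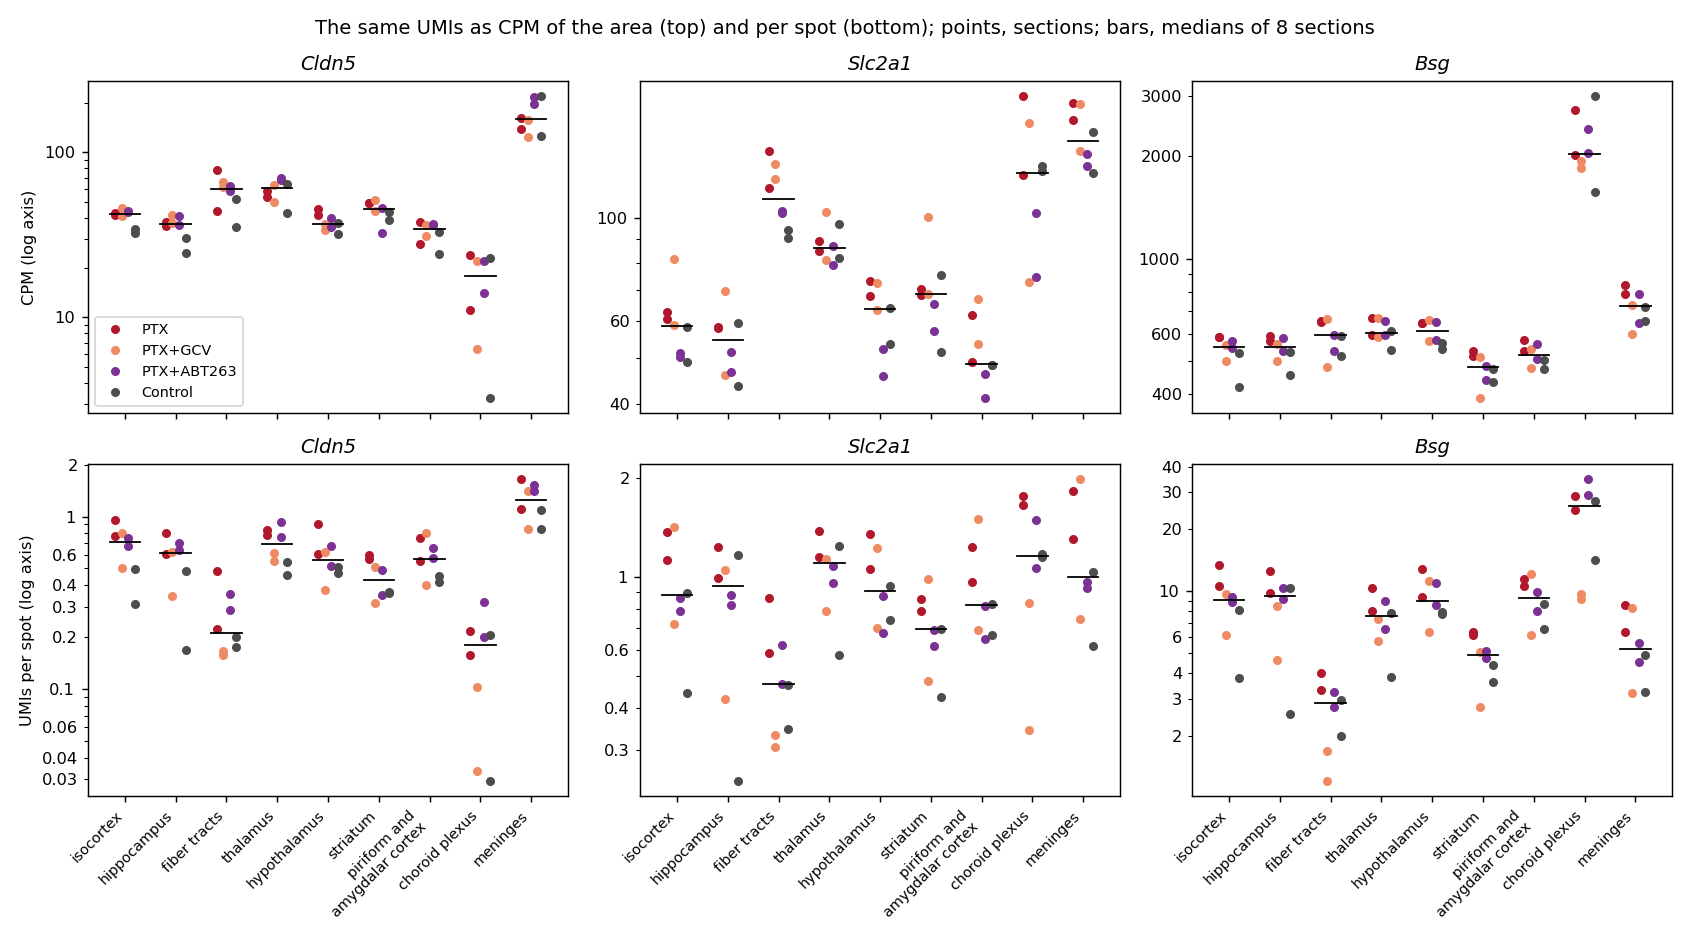
Levels of Cldn5, Slc2a1 and Bsg in 9 areas, as CPM of the area without TMM factors (top row) and per spot (bottom row), on log axes, with 1 point per section in the colour of its group and a bar at the median of 8 sections. Fiber tracts lie among the higher areas in the top row for Cldn5 and Slc2a1, and among the lower areas in the bottom row for all 3 genes.

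Grey matter of the cortex lay on the other side. As CPM, the piriform and amygdalar cortex held less of all 10 genes (24.1% of 15207 genes higher and 26.3% lower as background), by 0.13 to 0.73 on the log2 scale. Ly6a fell by 0.73 (SE 0.07, adjusted p = 7.94e-09), with 20.8, 24.8 and 42.4 CPM there as lowest, median and highest, against 30.1, 46.6 and 54.8 in the rest. Flt1 fell by 0.53, Ly6c1 by 0.52, Cldn5 by 0.43 and Slc2a1 by 0.40, all in 8 of 8 sections, as were 18.2% of all genes. Without the sections labelled PTX+ABT263 the calls of Pecam1 (-0.19, adjusted p = 0.243) and Mfsd2a (-0.18, adjusted p = 0.13) were lost. The hippocampus held less of 9 genes (25.8% of 15188 genes higher, 26.6% lower), led by Pecam1 with 4.35, 6.78 and 8.24 CPM, against 8.13, 9.30 and 10.0 in the rest (-0.44, SE 0.12, adjusted p = 0.0034). Mfsd2a was again the exception in the hippocampus (-0.11, SE 0.08, adjusted p = 0.254). The isocortex held less of 7 genes (31.2% of 15637 genes higher, 33.6% lower), led by Slco1a4 (-0.32, SE 0.06, adjusted p = 0.00021) and Slc2a1 (-0.26, SE 0.04, adjusted p = 7.01e-06). Isocortex spots held more RNA than others in 8 of 8 sections, and per spot Cldn5, Ly6c1, Flt1, Mfsd2a, Itm2a and Bsg were higher in the isocortex in 7 of 8 sections, where 63.6% of all genes were higher in at least 7. Piriform and amygdalar cortex spots also held more UMIs in 8 of 8 sections. Per spot they held more Bsg in 8 sections, Mfsd2a in 7, Slco1a4, Pecam1 and Itm2a in 5, Flt1 and Slc2a1 in 4, Cldn5 and Ly6c1 in 3 and Ly6a in 2. Hippocampus spots held more UMIs in 6 of 8 sections, and per spot none of the 10 genes was lower there in more than 5.

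Hypothalamus and striatum each held a gene that moved against the others. In the hypothalamus 6 genes were lower and 1 was higher (30.3% of 15268 genes higher, 30.4% lower). Ly6a fell by 0.33 (SE 0.05, adjusted p = 3.02e-05) and Ly6c1 by 0.26 (SE 0.05, adjusted p = 0.00021), while Bsg was higher in 7 of 8 sections (0.12, SE 0.04, adjusted p = 0.0141). Hypothalamus spots held more UMIs of all genes in 8 of 8 sections. Of the 6 genes lower as CPM, Slc2a1 was higher per spot in 7 sections, Cldn5 and Slco1a4 in 5, Ly6a and Flt1 in 4 and Ly6c1 in 3. Without the sections labelled PTX+ABT263 the call of Slc2a1 was lost in the hypothalamus (-0.10, adjusted p = 0.0635) and in the striatum (0.15, adjusted p = 0.061). In the striatum 6 genes were higher as CPM and 1 lower (22.2% of 15308 genes higher, 23.9% lower). Itm2a led with 40.2, 52.1 and 69.2 CPM, against 35.3, 40.6 and 43.6 in the rest (0.40, SE 0.07, adjusted p = 3.7e-06, 8 of 8 sections), and Bsg was lower in 8 of 8 sections (-0.16, SE 0.04, adjusted p = 0.00051). With total counts in place of TMM factors only these 2 calls remained in the striatum, since Cldn5 (0.02, adjusted p = 0.836), Slco1a4 (0.21, adjusted p = 0.0809), Ly6c1 (0.12, adjusted p = 0.102), Ly6a (0.07, adjusted p = 0.408) and Slc2a1 (0.02, adjusted p = 0.772) lost theirs. That scale moved the median of all genes in the striatum by -0.14, and 27% of the calls were higher, against 48% with TMM factors. Per spot, the 6 genes higher as CPM were lower in the striatum in most sections. Slc2a1 was lower in 8 of 8 sections, Cldn5 and Ly6a in 7, Slco1a4 and Ly6c1 in 6 and Itm2a in 5. A striatum spot held fewer UMIs of all genes in 8 of 8 sections (median 10224.9, against 13688.5 in the rest).

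Ordered by their mean CPM over 8 sections, here without TMM factors, the areas formed few clear steps. Cldn5 had 167 ± 39 in the meninges, apart from 58.9 ± 9.3 in the thalamus and 57.5 ± 13 in fiber tracts, which did not differ beyond their spread (SD, n = 8). From there the order ran through striatum (44.5), isocortex (40.9), hypothalamus (37.8), hippocampus (35.6) and piriform and amygdalar cortex (32.9) with no gap beyond the larger SD of the 2 neighbours, and the choroid plexus stood apart at 15.7 ± 8.1. Bsg stood apart in the choroid plexus (2194 ± 479) and in the meninges (721 ± 81), and the other 7 areas ran from 617 in the thalamus to 474 in the striatum. Mfsd2a stood apart at the top in the thalamus (20.4 ± 5.0) and at the bottom in the choroid plexus (5.51 ± 4.5).

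Within the isocortex, spots with upper-layer markers were set against spots with deep-layer markers, a comparison chosen after the data had been seen. Of the 10 genes 5 were higher in upper layers and 2 lower (19% of 13776 genes higher, 19.6% lower). Ly6a had 23.0, 46.6 and 52.3 CPM in upper layers as lowest, median and highest, against 21.5, 37.1 and 44.9 in deep layers (0.31, SE 0.06, adjusted p = 6.18e-06, 8 of 8 sections). Cldn5 (0.26, SE 0.06, adjusted p = 0.0003), Flt1 (0.23), Ly6c1 (0.20) and Slc2a1 (0.19) were also higher. Itm2a ran against them, with 30.4, 35.5 and 42.1 CPM in upper layers and 36.2, 43.4 and 51.0 in deep layers (-0.23, SE 0.06, adjusted p = 0.0012, lower in 7 of 8 sections), and so did Bsg (-0.07, SE 0.03, adjusted p = 0.0205). Without the sections labelled PTX+ABT263 the call of Bsg was lost (-0.05, adjusted p = 0.181), and with DESeq2 that of Flt1 (adjusted p = 0.0779). Meninges markers summed to 23.4 to 41.8 CPM in upper and 17.3 to 27.8 in deep layers, smooth muscle markers to 30.9 to 64.9 and 26.7 to 41.9, and pericyte markers to 101 to 131 and 102 to 134. Their part in the result was not tested.

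**Figure D4:**
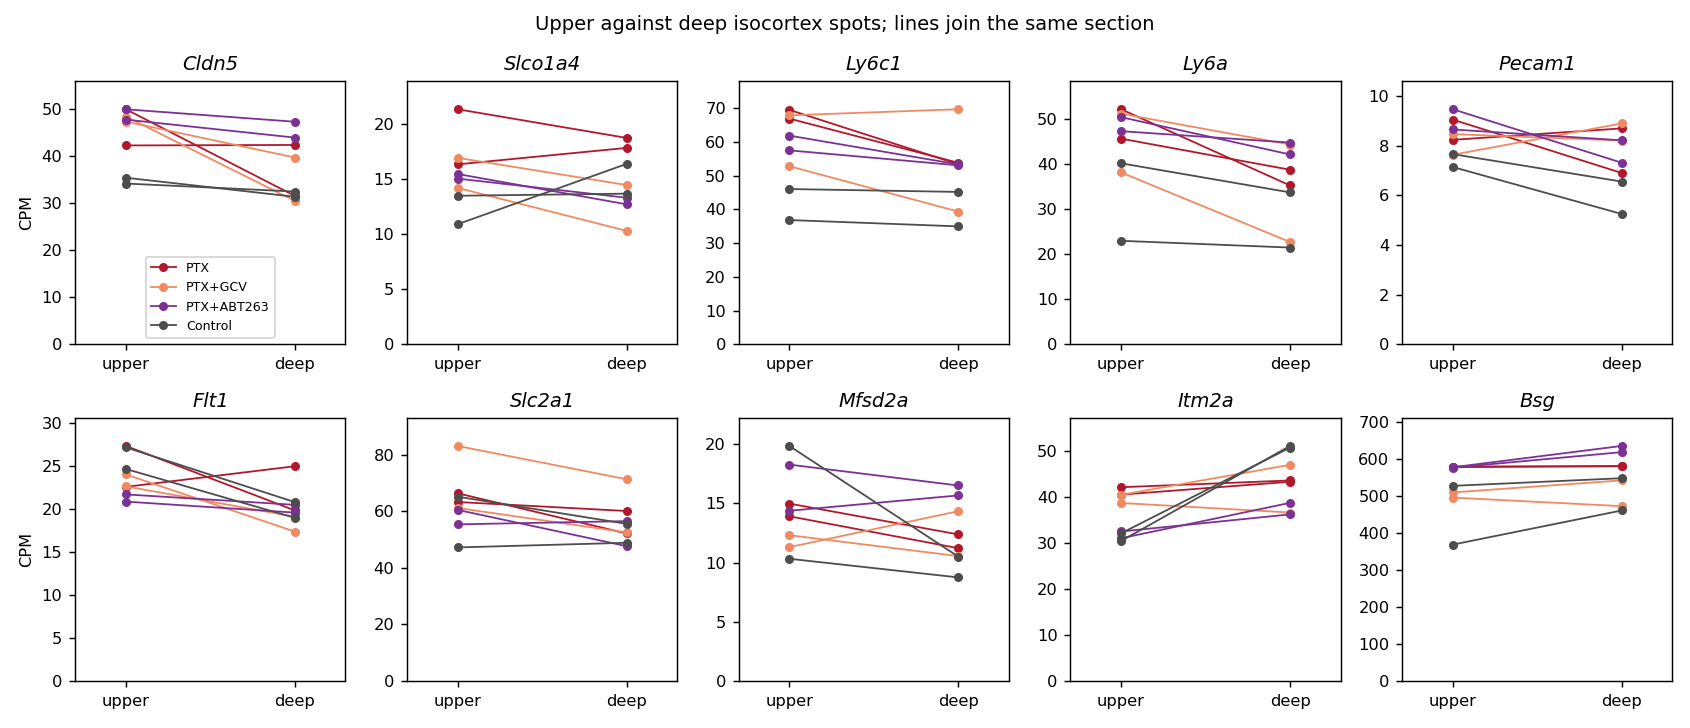
Level of the 10 genes in CPM in upper and deep isocortex, 1 line per section joining its upper value (left) to its deep value (right). Lines fall toward deep layers for Ly6a in 8 of 8 sections and rise for Itm2a in 7 of 8.

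Isocortex spots with at least 2 UMIs of the smooth muscle genes Acta2, Tagln and Myh11 together were set against isocortex spots without them. There were 8 to 40 such smooth muscle spots per section. They were chosen since smooth muscle wraps arteries and arterioles. Here 4 genes were higher and none lower, with 1.59% of 13405 genes higher and 1.27% lower as background. Ly6a had 27.7, 60.6 and 99.3 CPM in smooth muscle spots, against 23.0, 43.2 and 47.0 in the others (0.55, SE 0.13, adjusted p = 0.0025, 8 of 8 sections). Cldn5 had 46.3, 60.6 and 88.1, against 32.9, 41.7 and 50.4 (0.49, SE 0.13, adjusted p = 0.0113, 8 of 8 sections), and Flt1 (0.58, SE 0.17, adjusted p = 0.0295) and Ly6c1 (0.42, SE 0.11, adjusted p = 0.0109) were higher in 6 and 7 sections. Slco1a4 leaned the other way, lower in 7 of 8 sections, and did not pass the test (-0.49, SE 0.25, adjusted p = 0.434). With at least 1 smooth muscle UMI the calls of Cldn5 (0.12, adjusted p = 0.576), Ly6c1 (0.17, adjusted p = 0.224) and Flt1 (0.31, adjusted p = 0.0556) were lost, with DESeq2 those of Ly6c1 (adjusted p = 0.0671) and Flt1 (adjusted p = 0.272). Leaving out PTX+GCV section 1 cost Cldn5 (adjusted p = 0.148), Ly6c1 (adjusted p = 0.223) and Flt1 (adjusted p = 0.143) their calls, and leaving out PTX section 2 cost Cldn5 (adjusted p = 0.066) and Ly6c1 (adjusted p = 0.063) theirs. Flt1 was also lost without PTX section 1, PTX+GCV section 2, the first section labelled PTX+ABT263 or Control section 1 (adjusted p between 0.0628 and 0.223). Without both sections labelled PTX+ABT263 no call was lost. Meninges markers moved with these spots too, at 37.0 to 219 CPM, against 16.9 to 30.5, as did pericyte markers, at 122 to 409, against 99.2 to 126. Their part in the result was not tested.

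The study asked what PTX leaves in the brain months later and whether removing senescent cells changes it. Over the whole section, none of the 10 genes passed the test between PTX and Control sections, where 0.126% of 16671 genes did. The values leaned upward for 6 genes, in which both PTX sections lay above both Control sections. By position alone 21.8% of all genes did so. Ly6c1 had 64.3 and 68.1 CPM in PTX sections, against 45.6 and 54.4 in Control sections (0.40, SE 0.10, adjusted p = 0.149). Ly6a had 48.6 and 45.6, against 29.6 and 41.8 (0.39, SE 0.14, adjusted p = 0.269), and Cldn5 44.1 and 47.0, against 42.5 and 35 (0.24, SE 0.09, adjusted p = 0.257). The junction gene and both surface antigen genes thus lay apart between groups, by less than the test requires with 2 sections each. Slco1a4 (0.19, SE 0.09), Pecam1 (0.17, SE 0.11) and Bsg (0.16, SE 0.08) also had groups that did not overlap. Flt1 (-0.04, SE 0.09), Slc2a1 (0.12, SE 0.11), Mfsd2a (-0.09, SE 0.14) and Itm2a (0.05, SE 0.08) overlapped between groups. An exact permutation test of 2 sections against 2 cannot go below p = 0.333. The shares of areas also differed between these sections. Piriform and amygdalar cortex held 5.86% and 5.19% of the spots in PTX sections, against 7.54% and 8.71% in Control sections. Striatum held 8.60% and 10.7%, against 6.39% and 6.92%. Their part in whole-section levels was not tested.

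The isocortex gave the same 6 genes with groups apart, where 21.3% of 14582 genes had both PTX sections above both Control sections and 0.261% passed the test. None of the 10 passed it. Ly6c1 had 61.8 and 61.0 CPM in the isocortex of PTX sections, against 36.0 and 45.5 in Control sections (0.58, SE 0.14, adjusted p = 0.119). Ly6a had 44.2 and 42.6, against 22.3 and 36.4 (0.53, SE 0.18, adjusted p = 0.263), Slco1a4 20.1 and 17.1, against 13.4 and 13.6 (0.46, SE 0.14, adjusted p = 0.215), and Cldn5 41.2 and 42.4, against 33.6 and 33.1 (0.32, SE 0.09, adjusted p = 0.181). For Ly6c1, Ly6a and Cldn5 the 2 PTX sections lay close together, and for Ly6c1 and Ly6a Control section 1, the shallowest library, was the lowest. Pecam1 (0.34, SE 0.18, adjusted p = 0.457) and Bsg (0.29, SE 0.11, adjusted p = 0.29) leaned the same way. The log2 difference was above 0 for 10 of 10 genes, against 50.2% of all genes, with a median of 0.31, and 5 of the 10 had an unadjusted p under 0.05, against 12.2% of all genes. The 10 genes were chosen with earlier results of these data known and were read in the same sections. These counts are therefore descriptions, and the genes are not separate pieces of evidence. The call on Ly6c1 depended on the tool: DESeq2 gave an adjusted p of 0.0374 in the isocortex and 0.0422 over the whole section, for log2 differences of 0.58 and 0.40. Without the sections labelled PTX+ABT263 the adjusted p of Ly6c1 was 0.194 in the isocortex, and none of the 10 genes was called there or over the whole section.

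Transcripts of other cells also differed between these isocortex spots. Haemoglobin and other blood markers summed to 315 and 410 CPM in PTX sections, against 177 and 80.4 in Control sections, and choroid plexus markers to 867 and 768, against 140 and 224. Meninges markers summed to 35.3 and 33.6, against 22.4 and 26.3, smooth muscle markers to 49.9 and 47.6, against 37.6 and 45.9, and pericyte markers to 118 and 132, against 117 and 114. Astrocyte markers lay the other way, at 2928 and 3236, against 4372 and 3413. In the PTX sections all 5 blood, 10 choroid plexus, 11 meninges and 9 pericyte markers had UMIs, as had 8 and 7 of 8 smooth muscle markers. Their part in the levels of the 10 genes was not tested. Over the whole section blood markers summed to 328 and 338 in PTX sections, against 91.0 and 58.9 in Control sections.

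Hippocampus and fiber tracts held fewer UMIs of these genes and gave wider errors. In the hippocampus (0.0641% of 12487 genes called) Ly6c1 had 60.1 and 50.4 CPM in PTX sections, against 27.0 and 42.8 in Control sections (0.59, SE 0.20, adjusted p = 0.644). Cldn5 had 37.7 and 36.4, against 28.5 and 25.7 (0.48, SE 0.17, adjusted p = 0.691). In fiber tracts (0.00864% of 11577 genes called) Slc2a1 had 114 and 139, against 92.0 and 97.3 (0.42, SE 0.16, adjusted p = 0.805), and Ly6a 62.6 and 66.4, against 34.8 and 54.4 (0.50, SE 0.22, adjusted p = 0.877). The groups did not overlap for these 4, and 5 genes in each of the 2 areas had both PTX sections above both Control sections, against 16.4% of all genes in the hippocampus and 16.6% in fiber tracts. None of the 10 passed the test in either area. Blood markers summed to 465 and 543 CPM in the hippocampus of PTX sections, against 37.3 and 9.15 in Control sections, and to 31.3 and 569 in fiber tracts, against 40.4 and 33.6. Their part in these levels was not tested.

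**Figure D5:**
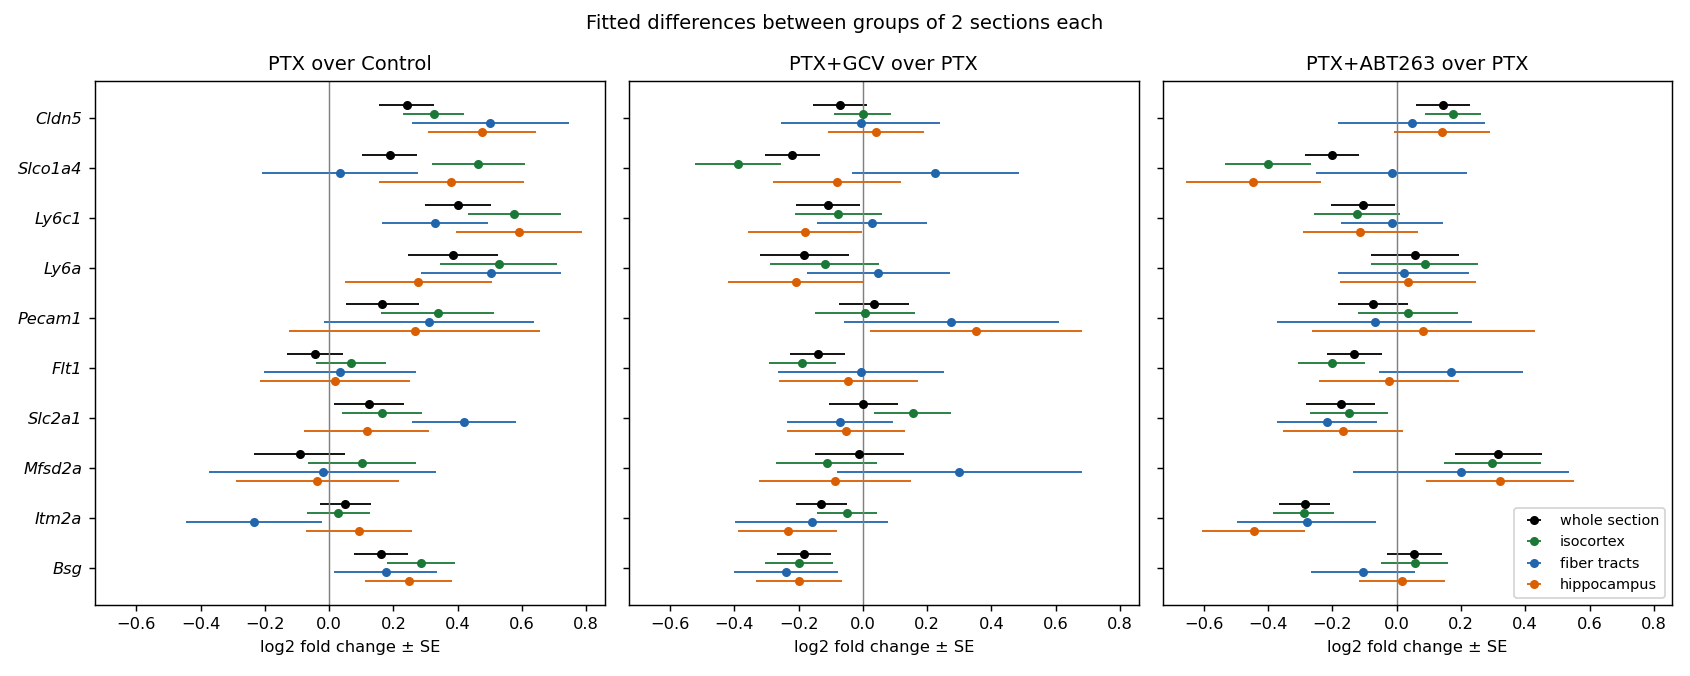
Log2 differences of the 10 genes in PTX over Control, PTX+GCV over PTX and the sections labelled PTX+ABT263 over PTX sections (1 panel each), over the whole section and in isocortex, fiber tracts and hippocampus (4 colours), with bars of 1 standard error and 2 sections per group. None passed an adjusted p of 0.05. In PTX over Control the isocortex values lie above 0 for all 10 genes (median 0.31), against 50.2% of all genes tested.

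PTX+GCV sections were compared with PTX sections, the same PTX sections as above, so the comparisons share samples. None of the 10 genes passed the test over the whole section (0.024% of genes called) or in the isocortex (0.0274%). Both PTX+GCV sections lay below both PTX sections for 4 genes over the whole section, against 20.2% of all genes. Slco1a4 had 17.9 and 16.7 CPM in PTX+GCV sections, against 20.9 and 19.3 in PTX sections (-0.22, SE 0.08, adjusted p = 0.395), and Bsg 515 and 558, against 612 and 606 (-0.18, SE 0.08, adjusted p = 0.473). Flt1 (-0.14, SE 0.09) and Cldn5 (-0.07, SE 0.08) were the other 2, and Cldn5 only by the gap between 44.116 in PTX+GCV section 1 and 44.122 in PTX section 1, which without TMM factors turned to 45.289 and 45.282. In the isocortex Slco1a4 had 12.4 and 15.7, against 20.1 and 17.1 (-0.39, SE 0.13, adjusted p = 0.57), and Flt1 20.8 and 20.8, against 23.7 and 23.7 (-0.19, SE 0.10, adjusted p = 0.735). The surface antigen genes spread widely between the PTX+GCV sections: Ly6c1 had 46.4 and 68.7 there, against 61.8 and 61.0 in PTX sections, and Ly6a 30.8 and 47.7, against 44.2 and 42.6. The medians over the 10 genes were -0.12 over the whole section and -0.09 in the isocortex, against -0.00032 and -0.0018 over all genes. Blood markers summed to 59.3 and 41.9 CPM in PTX+GCV sections over the whole section, against 328 and 338 in PTX sections, and to 37.4 and 71.9 in the isocortex, against 315 and 410. Choroid plexus markers summed to 138 and 206 in the isocortex of PTX+GCV sections, against 867 and 768. Their part in these levels was not tested.

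The sections labelled PTX+ABT263 were compared with the same PTX sections. None of the 10 genes passed the test (0.138% of genes called over the whole section, 0.144% in the isocortex). Itm2a came closest, with 37.2 and 37.1 CPM in the sections labelled PTX+ABT263, against 43.1 and 47.5 in PTX sections (-0.29, SE 0.08, adjusted p = 0.194). In the isocortex Itm2a had 34.4 and 34.6, against 42.6 and 41.8 (-0.29, SE 0.09, adjusted p = 0.283). Itm2a lies on the X chromosome and drug and sex cannot be told apart in this comparison. Slco1a4 had 17.7 and 17.3, against 20.9 and 19.3 over the whole section (-0.20, SE 0.08, adjusted p = 0.373), and 14.0 and 14.2, against 20.1 and 17.1 in the isocortex (-0.40, SE 0.13, adjusted p = 0.291). The other lipid and anion carrier gene went the opposite way. Mfsd2a had 16.4 and 17.3, against 14.6 and 12.4 (0.32, SE 0.14, adjusted p = 0.392), and in the isocortex 15.1 and 17.5, against 13.7 and 12.7 (0.30, SE 0.15, adjusted p = 0.518). Over the whole section 3 genes had both sections above both PTX sections (22.3% of all genes) and 5 below (22.3%). With total counts in place of TMM factors the median of all genes moved by -0.12, and 22% of the calls were higher, against 61% with TMM factors.

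Both drug groups were also set against Control sections, comparisons added after the data had been seen. In the isocortex Cldn5 rose in the sections labelled PTX+ABT263: 45.6 and 48.7 CPM, against 33.6 and 33.1 in Control sections (0.50, SE 0.10, adjusted p = 0.0322), where 0.425% of all genes were called. That is the only call among the 10 genes in any group comparison of the main analysis, and it rests on sections whose sex goes against the label. It was lost with total counts in place of TMM factors (0.39, adjusted p = 0.0709), in a fit of the 2 groups alone (0.50, adjusted p = 0.053) and without the first (0.55, adjusted p = 0.139) or second (0.45, adjusted p = 0.317) section labelled PTX+ABT263 or Control section 1 (0.51, adjusted p = 0.0779) or 2 (0.49, adjusted p = 0.0811). Choroid plexus markers summed to 294 and 459 CPM in the isocortex of the sections labelled PTX+ABT263, against 140 and 224 in Control sections, and their part was not tested. Over the whole section Cldn5 differed by 0.38 there (SE 0.09, adjusted p = 0.176), where 0.198% of all genes were called. In the comparisons of fiber tracts and hippocampus not described above, the share of all genes called was 0.0518% and 0.0961% for the sections labelled PTX+ABT263 against PTX sections, 0.0432% and 0.0801% for them against Control sections, 0% and 0.032% for PTX+GCV against PTX sections, and 0% in both areas for PTX+GCV against Control sections. Between PTX+GCV and Control sections no gene of the 14582 tested in the isocortex passed the test (edgeR; 1084 had an unadjusted p under 0.05), and the largest differences among the 10 were those of Ly6c1 (46.4 and 68.7, against 36.0 and 45.5; 0.50, SE 0.15, adjusted p = 0.454) and of Ly6a (30.8 and 47.7, against 22.3 and 36.4; 0.41, SE 0.19, adjusted p = 0.666).

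Other genes of brain endothelium were drawn from 8 lists of 99 genes in all (junctions, transporters, Wnt signalling, endothelial identity, caveolae and fenestrae, arterial, capillary and venous genes), of which 96 were tested over the whole section and 94 in the isocortex. Between PTX and Control, 2 of 96 passed the test over the whole section, both lower (0.078% of all genes were called lower). Nr2f2, a transcription factor that specifies veins and is also made by some neurons, had 32.5 and 34.1 CPM in PTX sections, against 63.3 and 54.5 in Control sections (-0.82, SE 0.12, adjusted p = 0.0285). Adgrf5, an adhesion receptor of endothelial cells, had 12.8 and 13.2, against 20.6 and 20.8 (-0.67, SE 0.11, adjusted p = 0.0431). Both calls were lost without PTX section 1 (adjusted p = 0.174 for each), PTX section 2 (adjusted p = 0.169 for each) or Control section 1 (Nr2f2 0.0544, Adgrf5 0.0619), and Adgrf5 also without Control section 2 (adjusted p = 0.0875) and without the sections labelled PTX+ABT263 (adjusted p = 0.0533). With the replicate block the adjusted p was 0.0563 for Nr2f2 and 0.101 for Adgrf5. The part of the area shares given above, which differed between these sections, was not tested for either gene. In the isocortex 0 of 94 passed (10 had an unadjusted p under 0.05, as had 12.2% of all genes). Nr2f2 had 14.3 and 13.3 CPM in the isocortex of PTX sections, against 18.2 and 26.1 in Control sections (-0.71, SE 0.21, adjusted p = 0.184). There 21 of 27 identity genes had the higher value in PTX sections, as had 50.2% of all genes. The identity genes had a median of 0.24, against 0.00133 over all genes. Cd34, a sialomucin of endothelial cells, had 58.8 and 55.6, against 47.7 and 41.7 (0.36, SE 0.09, adjusted p = 0.122), and Car4, a carbonic anhydrase of capillaries, 42.4 and 39.5, against 32.3 and 31.1 (0.37, SE 0.10, adjusted p = 0.159). No gene of the lists passed in the 2 drug comparisons against PTX over the whole section or in the isocortex.

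The lists were also counted across areas. Spots mix cell types, so RNA of these genes from cells other than endothelium was not separated. In the meninges 25 of 28 identity genes were higher and none lower (median 1.74), as were 5 of 6 arterial (median 2.52), 9 of 11 junction and 11 of 13 Wnt signalling genes, and 14 of 22 transporter genes with 3 lower. Of 6 capillary genes 3 were higher and 1 lower there, with a median of 0.06, and over all genes 17.8% were higher and 19.6% lower. In the thalamus 16 of 27 identity genes were higher and 4 lower, with 7 of 11 junction and 8 of 13 Wnt signalling genes higher (30.8% of all genes higher, 31.9% lower). In the piriform and amygdalar cortex 14 of 27 identity genes were lower and 1 higher (26.3% of all genes lower, 24.1% higher). In the choroid plexus 7 of 11 junction genes were higher and 1 lower, and 4 of 6 caveolae and fenestrae genes were higher and none lower (24% of all genes higher, 29.4% lower). Cldn5 thus ran against most of the other junction genes tested there. These spots hold epithelium as well as vessels, and which cells the junction transcripts came from was not tested.

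Among spots of the isocortex, 15727 other genes were ranked by their Pearson correlation with the mean of the 10 genes, both as log2(1 + UMIs per 10000), averaged over 8 sections. The highest were Pltp, a phospholipid transfer protein gene (mean r = 0.313), Cst3 (0.212), Klf2 (0.204), Ifitm3 (0.197), the pericyte gene Rgs5 (0.195), Id1 (0.187), the drug efflux pump gene Abcb1a (0.186), Pglyrp1 (0.186), the pericyte gene Vtn (0.18) and Epas1 (0.179). Spots of 1 section share a library and a depth, so these are descriptions. Over hippocampus and thalamus spots Pltp was again first (0.337). Between pairs of the 10 genes the mean r in isocortex spots ran from 0.0112 (Mfsd2a with Itm2a) to 0.189 (Cldn5 with Ly6c1), with 31 of 45 pairs above 0 in all 8 sections.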

How the data were processed

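The file headers name Space Ranger 1.2.1, run by the authors against mm10. They deposited raw UMI counts per gene and spot, which are used here unchanged. Seurat 4.0, named in the submitters' processing notes, left no trace in these counts. Depth is given in the report, and its part in the levels was not tested. Spots under tissue were kept with at least 200 genes and at most 30% mitochondrial counts, and given to areas by marker scores with a neighbour weight of 0.5. Scores of choroid plexus and meninges were taken without the neighbours. No doublet caller was run, since a spot holds several cells. Counts were summed per section, or per section and area with at least 20 spots. The smooth muscle spots had no such minimum (8 to 40 per section). All genes left by filterByExpr were tested by quasi-likelihood in edgeR 4.0.16, with TMM factors and Benjamini-Hochberg adjusted p under 0.05. Group fits used all 8 sections and 4 groups, area fits the section as a block. All 10 genes passed the filter in every fit. Alternatives were DESeq2 1.42.0, total counts, no filter, a replicate block, fewer groups, only spots with a clear area, other spot classes and leaving out sections. The scripts were tested on simulated data. Genes named were the 10 members, genes of 8 further lists that passed (or up to 2 per list with the smallest p) and the 10 most correlated genes. The members and lists were chosen with earlier results of these data known. Spot images are not used here.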

Additional observations from a re-analysis of the deposited data

Results flagged for a closer look

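Among 110 sets of 8 section values, 6 held 1 section far from the others, and chance alone marks about 1 set in 20. In the isocortex against the rest of the section, the log2 ratio of Slc2a1 was -0.0035 in PTX+GCV section 2, against -0.37 to -0.21 in the other 7 sections. Control section 1, the shallowest library, stood apart 3 times for Bsg: at -0.37 in the isocortex (the others -0.15 to 0.022), at -0.24 in the hippocampus (the others -0.11 to -0.061) and at -0.66 in isocortex spots with smooth muscle UMIs (the others -0.19 to 0.030). The log2 ratio of Ly6a in the striatum was -0.40 in PTX+GCV section 1, against 0.098 to 0.37 in the others. That of Mfsd2a in the piriform and amygdalar cortex was -1.14 in the second section labelled PTX+ABT263, against -0.39 to 0.013.

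The level of Bsg lay in opposite directions in 2 areas between the sections labelled PTX+ABT263 and PTX sections, though it passed the test in neither: both sections labelled PTX+ABT263 lay above both PTX sections in the isocortex (599 and 605, against 578 and 580 CPM) and below both in fiber tracts (617 and 583, against 644 and 646). The log2 differences of the 2 areas were 0.16 apart, and this difference was not tested. Without TMM factors the sections labelled PTX+ABT263 lay below PTX sections in both areas (575 and 546, against 589 and 589 in the isocortex, and 597 and 534, against 655 and 650 in fiber tracts).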

How the results depend on the processing

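Of 3788 values of the 10 genes under 19 other settings, none turned a called direction, 68 lost a call (36 of them when 1 section was left out) and 35 gained one; 170 changed sign with no call in either fit. For PTX against Control over the whole section, where no gene was called, 2 were without the filter on low counts (Ly6c1, adjusted p = 6.05e-05, and Ly6a, adjusted p = 0.00025) and 1 with DESeq2 (Ly6c1). In the isocortex 3 were called without the filter (Ly6c1, Ly6a and Bsg), 1 with DESeq2 (Ly6c1), and 0 to 2 when 1 section was left out: Ly6c1 without PTX+GCV section 1 (adjusted p = 0.0367) or section 2 (adjusted p = 0.0399), and Bsg (0.50, adjusted p = 0.0168) with Ly6a (0.96, adjusted p = 0.0342) without Control section 2. For the sections labelled PTX+ABT263 against PTX sections, 1 gene was called over the whole section without the filter (Itm2a, -0.29, adjusted p = 0.0199). Against Control in the isocortex, these sections gave 1 call (Cldn5), 0 with total counts or with only the 2 groups, 4 without the filter and 0 to 2 when 1 section was left out; DESeq2 called Bsg and gave Cldn5 no adjusted p. Over the whole section they gave 0, with 3 without the filter and 0 to 1 when 1 section was left out. PTX+GCV against Control gave 0, with 1 over the whole section and 2 in the isocortex without the filter. In the striatum 2 genes were called with total counts, against 7. In smooth muscle spots 2 were called with DESeq2 and 1 with at least 1 smooth muscle UMI, against 4, and 1 to 4 when 1 section was left out. The cause of these changes was not tested. Leaving out 1 section gave 7 to 8 calls in the isocortex, 9 in the hippocampus and the meninges, 8 to 9 in fiber tracts and the thalamus, 6 to 8 in the hypothalamus and between layers, 5 to 8 in the striatum, 8 to 10 in the piriform and amygdalar cortex and 6 in the choroid plexus. Without the sections labelled PTX+ABT263 these counts were 7, 9, 9, 8, 9, 6, 6, 6, 8 and 6 in the same order.

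Over all genes, PTX against Control over the whole section gave 21 calls, 54 with total counts, 874 without the filter, 66 with only the 2 groups, 145 with DESeq2 and 0 to 78 when 1 section was left out; in the isocortex 38, with 400 without the filter, 90 with DESeq2, 6 with only the 2 groups and 1 to 173. PTX+GCV against PTX over the whole section gave 4, with 36 with total counts, 547 without the filter and 76 with DESeq2; in the isocortex 4, with 118 without the filter. The sections labelled PTX+ABT263 against PTX sections gave 23, with 118 with total counts, 712 without the filter and 108 with DESeq2; in the isocortex 21, with 121 with total counts and 305 without the filter. With the replicate block (section number) the counts were 2, 2 and 22 over the whole section and 17, 3 and 18 in the isocortex, and no gene of the 10 was called in any of the 12 comparisons of PTX with Control or of a drug group with PTX (Ly6c1, PTX against Control over the whole section: 0.41, adjusted p = 0.149). Same-numbered sections share only a number: their deviations from the group means correlated by -0.115 to 0.066. With the block, the Cldn5 call of the sections labelled PTX+ABT263 against Control in the isocortex was kept (adjusted p = 0.0423). Pecam1 had 176 to 398 UMIs per section.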
